A study of Homo sapiens with 2 samples.

Results

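The genes described here are 34 core genes of macroautophagy other than those of the ULK complex and the ATG8 family, and they were taken from a list of names, drawn up with earlier results of these data known. All 34 were found by symbol among the 20162 protein-coding genes that the GENCODE annotation places on chromosomes 1 to 22, X and Y of hg19. The binding data are the NRF1 peaks of 1 chromatin immunoprecipitation (ChIP) library from HCT116, a human colorectal carcinoma line, after 16 h of MG132 at 1 µM. MG132 is a peptide aldehyde that blocks the proteasome. The other sample is an input, chromatin of equally treated cells that received no antibody, which was not analysed here, and both samples carry MG132, so that nothing can be said about binding before or without proteasome inhibition. The authors' list holds 5683 peaks, and its score runs from 50.00 to 3100, with a median of 91.86. In MACS the score is the p-value of a peak on a negative log10 scale, multiplied by 10, so that a higher score means stronger evidence for the peak. With 1 library there is no replicate error, the read depth behind a peak is unknown, and no test was made. A peak list measures neither expression nor the identity of the cells.

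NRF1 (NFE2L1) is a transcription factor of the cap'n'collar family that is anchored in the endoplasmic reticulum and degraded in unstressed cells, and that reaches the nucleus when the proteasome fails. With a small MAF partner it binds antioxidant response elements (AREs). Autophagy encloses cargo in a membrane that grows from the endoplasmic reticulum, closes and fuses with the lysosome, and the genes described here supply the steps after initiation. They make the lipid PI3P, read it, move lipid into the membrane, attach ATG8 proteins to it and fuse the closed vesicle with the lysosome. The ARE was searched on both strands as the consensus TGAGNNNGC or TGACNNNGC and, within it, as TGAGTCAGC or TGACTCAGC, called the full ARE here. A match that is only of the wider kind is called degenerate.

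A peak was centred within 2 kb of a transcription start site (TSS) at 4 of the 34 genes, namely *ATG5*, *ATG4D*, *VMP1* and *RUBCN* (11.8%, against 6.03% of all protein-coding genes). Within 20 kb the number was 9 (26.5%, against 18.7%), with *ATG7*, *ATG16L1*, *ATG16L2*, *ATG9A* and *ATG9B* added. *UVRAG* had a peak inside the gene but further than 20 kb from its TSSs, and the remaining 24 genes had neither. These 34 genes, called the members below, have more annotated TSSs than most, with a median of 11 against 5, and the windows of 2 kb around them covered a median of 16310 bp against 8282 bp for all protein-coding genes. The part of this difference in the shares was not tested.

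The AREs of the 4 peaks next to a TSS are shown first because every one of these peaks held a degenerate ARE and none held a full one. Each run is read 5′ to 3′ from hg19 on the strand of the match, with the ARE in capitals and 10 bases on each side, and the coordinates are those of the ARE. *RUBCN* is given with both of its matches.
ATG5, chr6:106773766-106773774, plus strand: gagtcgctctTGAGCATGCgccaacgggg
ATG4D, chr19:10654289-10654297, minus strand: caggtgagacTGACTGCGCacctgcagcg
VMP1, chr17:57784971-57784979, minus strand: ctctgcccccTGAGACAGCctccagaagg
RUBCN, chr3:197445864-197445872, plus strand: ttttgcccagTGACTCTGCatatcctatg
RUBCN, chr3:197445994-197446002, plus strand: actcatgacgTGACTCTGCatacctgtgt

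Full AREs were found in 6 peaks that lay further from the TSSs of these genes. They are shown to set beside the degenerate forms, in the same layout.
ATG7, chr3:11347161-11347169, minus strand: ttgggaggtaTGAGTCAGCaaatcacaag
ATG16L2, chr11:72551982-72551990, plus strand: agaatcctggTGACTCAGCatgaaggctt
ATG9A, chr2:220082671-220082679, plus strand: aaaaccacagTGACTCAGCaaagacacac
VMP1, chr17:57806901-57806909, minus strand: agttaccataTGACTCAGCaattcaggaa
VMP1, chr17:57906674-57906682, plus strand: tagatattaaTGAGTCAGCatgatggcct
UVRAG, chr11:75746265-75746273, minus strand: acacagaacaTGACTCAGCaaattcaata

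**Figure D1:**
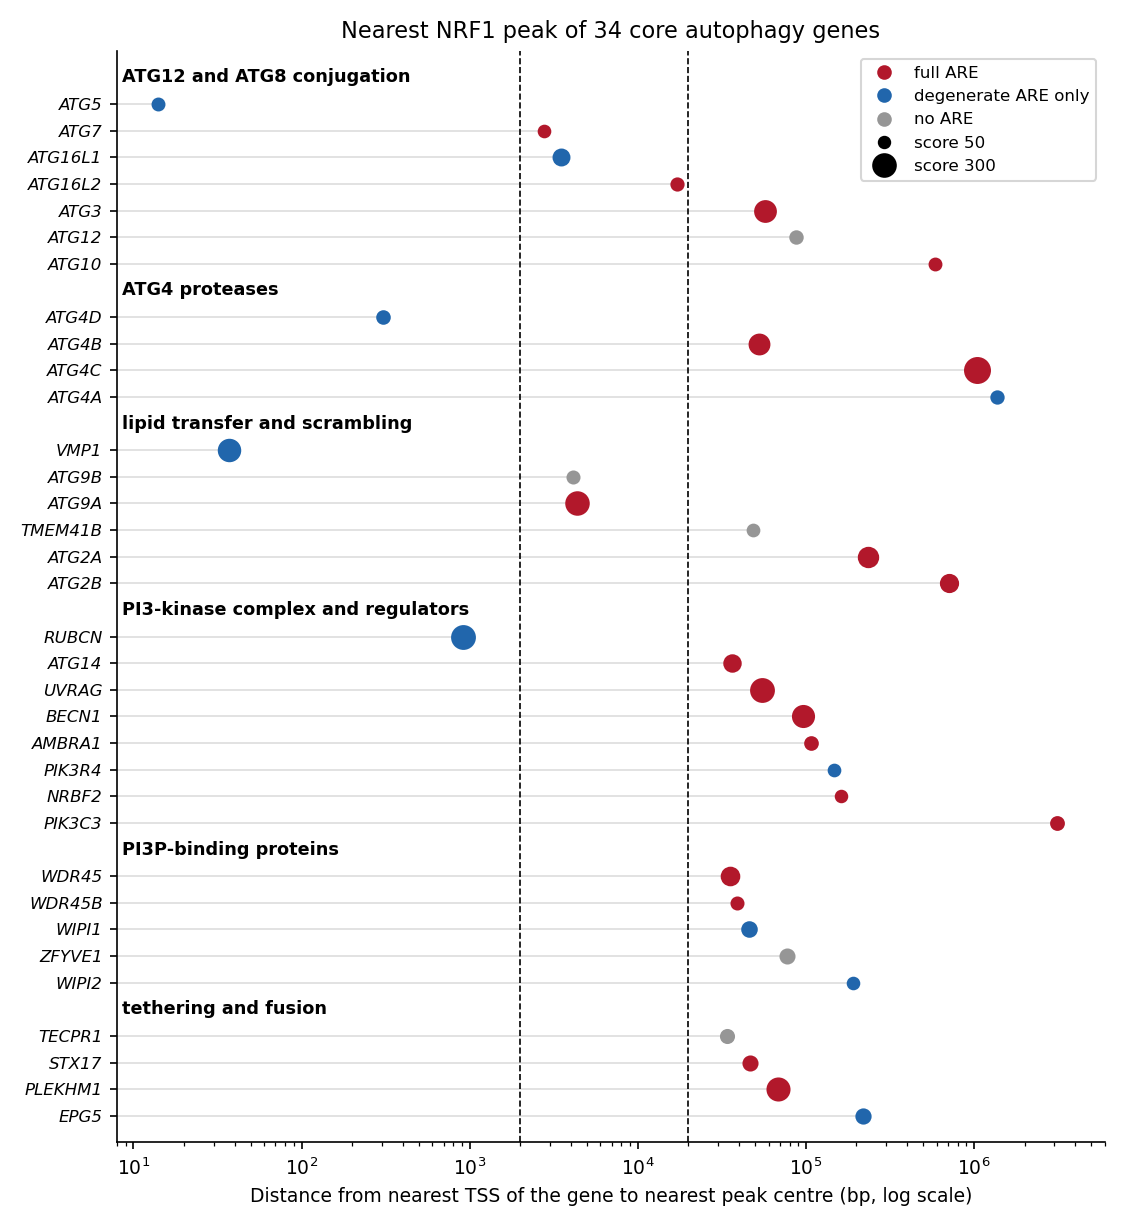
Distance in bp (log scale) from the nearest annotated TSS of each of the 34 genes to the nearest NRF1 peak centre, by role in autophagy, with 1 point a gene, its size following the peak score and its colour the ARE form. Dashed lines mark 2 kb and 20 kb: *ATG5*, *ATG4D*, *VMP1* and *RUBCN* lie left of the first, and all of the PI3P-binding and the tethering and fusion genes lie right of the second. Of all protein-coding genes, 18.7% have a peak within 20 kb.

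The first group of genes attaches ATG8 proteins to lipid. ATG7 is the E1-like enzyme of this system, ATG3 and ATG10 are its E2-like enzymes, and the conjugate of ATG12 and ATG5 acts with ATG16L1 at the last step. Of these 7 genes, 1 had a peak within 2 kb of a TSS (14.3%) and 4 had one within 20 kb (57.1%). Over all protein-coding genes the shares were 6.03% and 18.7%. The windows of 20 kb around the TSSs covered a median of 118538 bp in this group, against 49312 bp for all protein-coding genes. *ATG7* and *ATG16L2* were counted through internal TSSs, with peaks 33056 bp and 26537 bp from the canonical one. The part of these windows in the share was not tested. At *ATG5*, on the minus strand of chromosome 6, the peak ran from 106773453 to 106773850, and its centre lay 14 bp upstream of the nearest TSS and 16 bp upstream of the canonical one. Its score was 57.99, and 85.4% of all peaks scored higher. The match to the ARE consensus lay 119 bp from the peak centre, outside the central 200 bp. A second *ATG5* peak, with a score of 102.93 and no ARE, lay inside the annotated span of the gene but past the end of its canonical transcript, from 106582893 to 106583338. The nearest protein-coding TSS there was that of *PRDM1*, a transcriptional repressor gene, at 36300 bp.

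*ATG7* had its peak on chromosome 3 from 11346918 to 11347361, in intron 5 of the canonical transcript and 2777 bp upstream of an internal TSS. The score was 53.55, close to the lowest value in the list. Its full ARE lay 26 bp from the peak centre, and the peak held degenerate matches as well. The *ATG16L1* peak on chromosome 2, from 234156471 to 234156980, was centred 3594 bp upstream of the canonical TSS with a score of 131.12, the highest of this group, and a degenerate ARE. At *ATG16L2*, a paralogue of *ATG16L1*, the peak at chr11:72551741-72552246 scored 62.51 and held a full ARE 7 bp from its centre. It lay 17053 bp from the nearest *ATG16L2* TSS but 2565 bp from a TSS of its neighbour *FCHSD2*. The other 3 genes of the group had their nearest peaks at 57.3 kb (*ATG3*), 87.1 kb (*ATG12*) and 588 kb (*ATG10*).

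The ATG4 enzymes are cysteine proteases that trim ATG8 precursors and later release ATG8 from lipid. Of the 4 genes, 1 had a peak within 2 kb of a TSS and 1 had one within 20 kb, *ATG4D* in both cases. Over all protein-coding genes the shares were 6.03% and 18.7%, and a list of 4 genes is too short for a comparison. *ATG4D* had 2 peaks within 20 kb, both upstream on chromosome 19. The nearer one ran from 10654020 to 10654513, with its centre 314 bp upstream of the canonical TSS and a score of 68.31. The other ran from 10652069 to 10652443, 2324 bp upstream, with a score of 73.99. Each peak held 1 degenerate ARE, at 27 bp and 65 bp from the centre. The nearest peak was 52.6 kb from *ATG4B*, and 1037313 bp and 1380104 bp from *ATG4C* and *ATG4A*.

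Lipid reaches the growing membrane through the transfer proteins ATG2A and ATG2B and is spread between its leaflets by the scramblases ATG9A and ATG9B. VMP1 and TMEM41B are scramblases of the endoplasmic reticulum. Of these 6 genes, *VMP1* alone had a peak within 2 kb of a TSS, and *ATG9A* and *ATG9B* had 1 each within 20 kb. The group's shares were 16.7% within 2 kb and 50.0% within 20 kb, against 6.03% and 18.7% of all protein-coding genes. The *ATG9A* peak had the higher score, 296.63, with 7.44% of all peaks above it, and a full ARE 47 bp from the centre. On chromosome 2 it occupied 220082377 to 220082879, past the end of *ATG9A*, and its centre was 284 bp from a TSS of *ABCB6*, which encodes an ABC transporter. Likewise the *ATG9B* peak, on chromosome 7 from 150725467 to 150725908, lay 57 bp from a TSS of *ABCB8*, another ABC transporter gene, and 4106 bp upstream of the canonical *ATG9B* TSS. Its score was 59.73 and it held no ARE. The nearest peaks of *TMEM41B*, *ATG2A* and *ATG2B* were at 48.8 kb, 234 kb and 714 kb.

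*VMP1* had 6 peaks within 20 kb of its TSSs, more than any other of the 20162 protein-coding genes. The next highest number was 4, at 18 genes. The windows around the *VMP1* TSSs covered 108862 bp, against a median of 49312 bp for all protein-coding genes. Of the 6 peaks, only the one at the start of the gene lay within 20 kb of the canonical TSS. The others lay at 21961 bp or further from it and were counted through internal TSSs, so that the number rests on the annotation. The peaks accounted for 6 of the 15 peaks within 20 kb of any member, and 9 remained without this gene.

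The first *VMP1* peak lay at the start of the gene, at chr17:57784525-57785119, and scored 266.31 (rank 553). Its centre was 37 bp from the nearest *VMP1* TSS and 193 bp upstream of the canonical one. It was also 21 bp from a TSS of *PTRH2*, a peptidyl-tRNA hydrolase gene, so that the peak cannot be given to 1 of the 2 genes. The degenerate ARE in it lay 153 bp from the centre and 40 bp upstream of the canonical *VMP1* TSS.

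The peaks inside *VMP1* followed at 21961 bp from the canonical TSS in intron 1 (score 153.62, full ARE), at 41304 bp in intron 5 (score 51.17, degenerate AREs) and at 121685 bp in intron 10 (score 126.85, full ARE). Past the 3′ end of the gene, peaks were centred at 135627 bp (score 50.66) and 145716 bp (score 323.14), and neither held an ARE. The last of these, from 57930335 to 57931127, was the highest-scoring member peak, with rank 346, although it had no ARE. *MIR21*, the gene of the microRNA miR-21, lies in the last exon of *VMP1*, from 57918627 to 57918698. Its start was 11927 bp from the centre of the peak in intron 10, 2015 bp from that of the low-scoring peak past the gene and 12104 bp from that of the peak with a score of 323.14. Both full AREs found in these 6 peaks therefore lay in introns, and the peaks at the 2 ends, which had the highest scores, held no full ARE. Full AREs between the peaks were not listed.

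**Figure D2:**
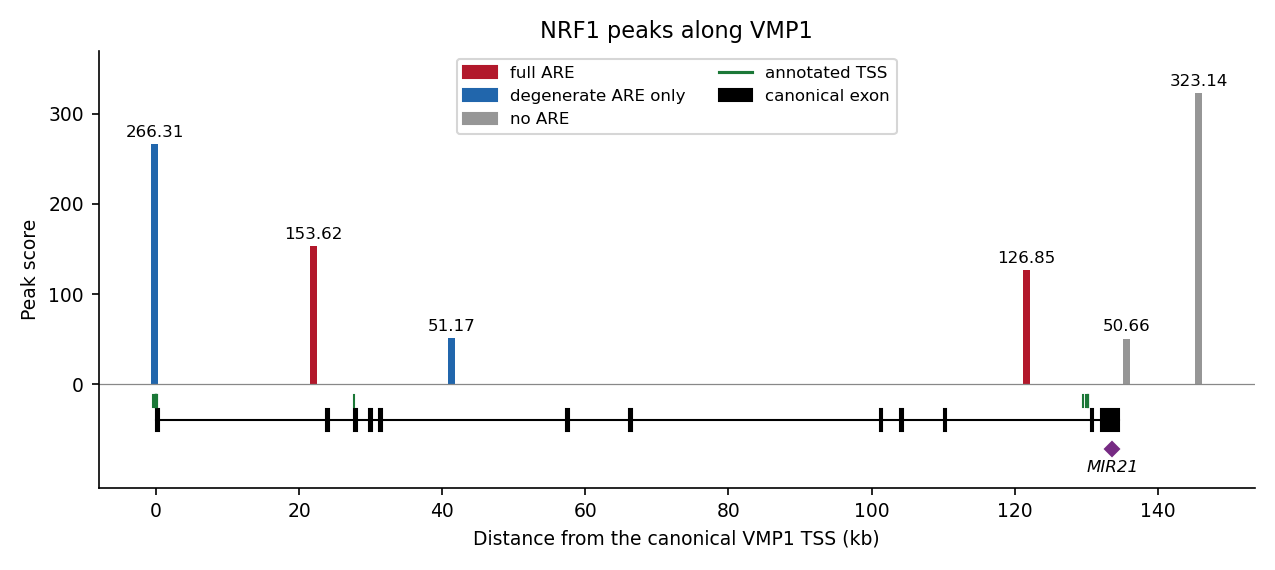
NRF1 peaks along *VMP1*, with the distance from the canonical TSS in kb on the horizontal axis and the peak score on the vertical axis. Bars are peaks, drawn 1 kb wide and coloured by ARE form, black boxes are canonical exons, green ticks are annotated TSSs and the diamond is *MIR21*. The tallest bars stand at the start of the gene (266.31) and past its end (323.14), and neither is a full ARE peak.

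The PI3-kinase complex makes PI3P on the membrane. PIK3C3 is its catalytic subunit, PIK3R4 and BECN1 are its constant partners, ATG14 and UVRAG mark alternative forms of it, NRBF2 and AMBRA1 promote its action and RUBCN (Rubicon) inhibits it. Of the 8 genes, *RUBCN* alone had a peak within 20 kb of a TSS (12.5%, against 18.7% of all protein-coding genes). On chromosome 3 the peak spanned 197445591 to 197446238, and its score of 306.72 gave it rank 390. It lay in intron 1 of the canonical transcript, 17861 bp downstream of the canonical TSS, and 913 bp upstream of a TSS from which a shorter protein-coding transcript starts. When only the canonical TSS of each gene was used, *RUBCN* therefore had no peak within 2 kb. The 2 matches in the peak have the same sequence, TGACTCTGC, are 130 bp apart on the same strand, and lie 46 bp and 84 bp from the peak centre on either side.

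*UVRAG* had a peak with nearly the same score, 306.31 (rank 391), at chr11:75745942-75746670. It lay in intron 12, 220051 bp from the canonical TSS and 55202 bp from the nearest one, with a full ARE 37 bp from its centre. The other 6 genes had no peak in the gene or within 20 kb. Their nearest peaks ranged from 36.5 kb at *ATG14* over 95.8 kb at *BECN1*, 108 kb at *AMBRA1*, 147 kb at *PIK3R4* and 161 kb at *NRBF2* to 3109 kb at *PIK3C3*.

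Of all protein-coding genes, 18.7% had a peak within 20 kb of a TSS and 13.0% had one in the gene. None of the 5 PI3P-binding genes and none of the 4 tethering and fusion genes had either, and these lists are short. The former are the WIPI family (*WIPI1*, *WIPI2*, *WDR45*, *WDR45B*), which recruits the conjugation and lipid transfer machinery, and *ZFYVE1*, whose product marks the site where the membrane forms. Their nearest peaks lay between 35.5 kb (*WDR45*) and 190 kb (*WIPI2*). Among the latter, *STX17* encodes a SNARE of the closed autophagosome, *EPG5* a tether and *PLEKHM1* an adaptor that joins it to the lysosome, and *TECPR1* a protein that binds the ATG12 and ATG5 conjugate. Their nearest peaks lay between 34.1 kb (*TECPR1*) and 220 kb (*EPG5*). The window of 2 kb separated *RUBCN* at 913 bp from *ATG7* at 2777 bp, and that of 20 kb separated *ATG16L2* at 17053 bp from *TECPR1* at 34131 bp.

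Over all 34 genes, the median distance from a TSS to the nearest peak centre was 53.9 kb, with quartiles of 21.3 and 158 kb. The median over all protein-coding genes was 105 kb, with quartiles of 32.4 and 270 kb. In 11 members the distance was over 100 kb, so that 67.6% had a peak within 100 kb, against 48.8% of all protein-coding genes. Inside the gene itself, a peak was centred at 7 members, namely *ATG5*, *ATG7*, *ATG16L1*, *ATG16L2*, *VMP1*, *UVRAG* and *RUBCN* (20.6%, against 13.0% of all protein-coding genes). The members are longer, with a median of 50.1 kb against 27.2 kb, and the part of gene length in this share was not tested.

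**Figure D3:**
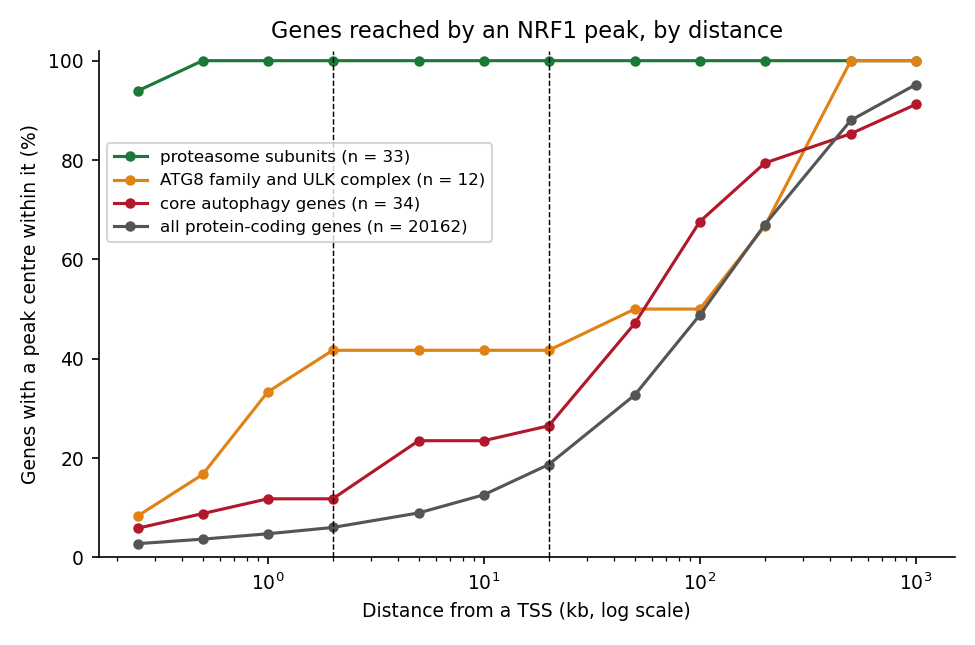
Share of genes (%) with an NRF1 peak centre within a given distance of a TSS (kb, log scale) for the 34 core autophagy genes, the 12 genes of the ATG8 family and ULK complex, 33 proteasome subunit genes and all 20162 protein-coding genes. At 2 kb, the left dashed line, the shares are 11.8%, 41.7%, 100% and 6.03%. The line of the core genes stays above that of all protein-coding genes up to 200 kb.

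By score, the 17 peaks within 20 kb of a member TSS or inside a member gene spread over most of the list. They ranged from 50.66 to 323.14 with a median of 102.93, and 5 of them were among the 568 highest-scoring of all 5683 peaks. These were 2 peaks of *VMP1* and those of *RUBCN*, *UVRAG* and *ATG9A*. Another 8 scored below 100. A score of 100 or more was held by 9 of the 17 and by 2515 of the 5673 peaks searched. Among the 1215 protein-coding genes with a peak within 2 kb of a TSS, the median of the best score was 99.46. Of these genes, 12.6% had a higher score than *RUBCN*, 16.5% than *VMP1*, 73.2% than *ATG4D* and 86.4% than *ATG5*. Thus *ATG5* and *ATG4D* had low scores among such genes, and *RUBCN* and *VMP1* high ones.

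**Figure D4:**
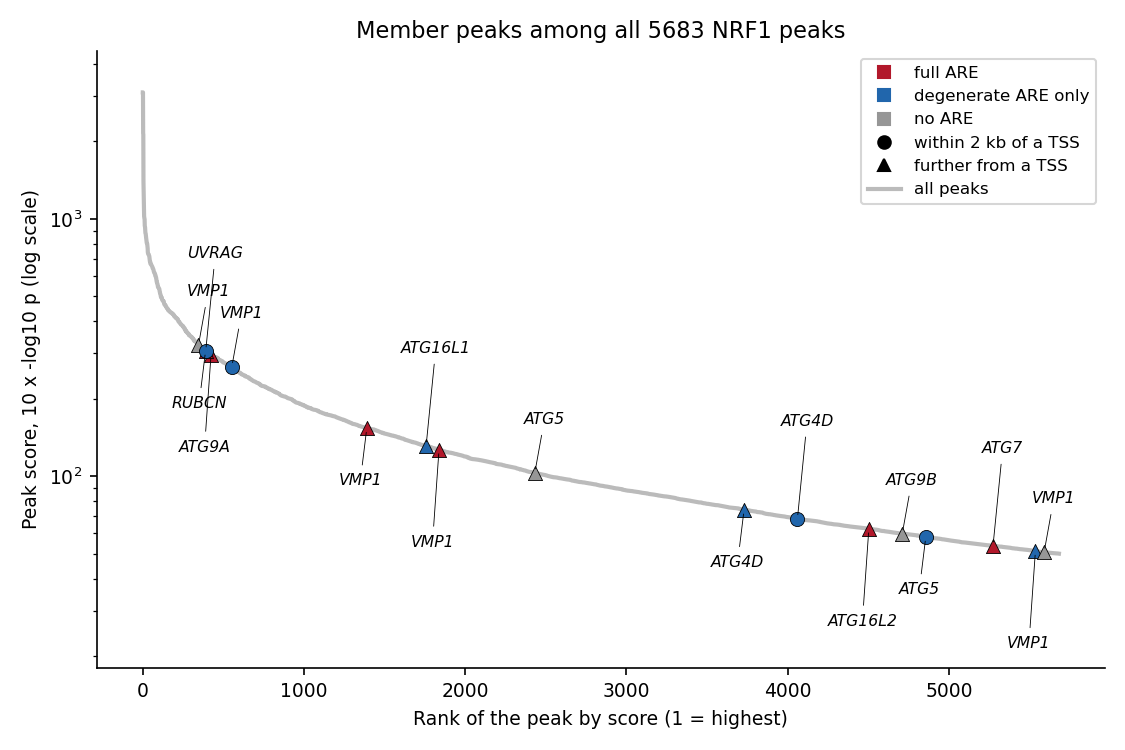
Score (log scale) against rank for all 5683 NRF1 peaks (grey line), with the 17 member peaks as points named by gene, coloured by ARE form and shaped by distance from a TSS. *VMP1*, *RUBCN*, *UVRAG* and *ATG9A* hold the 5 points at the upper left, and the *ATG5* and *ATG4D* peaks next to a TSS sit in the lower right part of the line.

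An ARE of either form was found in 13 of the 17 member peaks (76.5%), against 87.4% of the 5673 peaks searched. Flanks of the same length, starting 2 kb from each edge of a peak, held one in 15 of 34 cases beside the member peaks (44.1%) and in 32.8% of cases beside all peaks, so that a degenerate match alone is common. Full AREs were present in 6 member peaks (35.3%, against 61.3% of all peaks) and in 1 of the 34 flanks. In all 6 the full ARE lay in the central 200 bp. For the 4 peaks within 2 kb of a TSS the count was 0, while 43.2% of the 1122 peaks within 2 kb of any protein-coding TSS held a full ARE. The small number of member peaks allows no more than this count.

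The genome was then searched for full AREs within 2 kb of the TSSs, irrespective of peaks. Such a match was present at 9 of the 34 members (26.5%, against 19.2% of all protein-coding genes). These were *ATG7*, *ATG12*, *ATG9B*, *PIK3C3*, *PIK3R4*, *WDR45*, *STX17*, *PLEKHM1* and *TECPR1*. Matches that overlap on both strands were counted as 1 place, which gave 15 places, and 0 of the 15 lay in a peak. Over all protein-coding genes 11.4% of 4515 such places lay in a peak, and over the whole genome 7.47% of 51459. No member had both a full ARE and a peak within 2 kb of a TSS. Of the 3877 protein-coding genes with such a full ARE, 3216 likewise had no peak within 2 kb, and the difference was not tested. Most of the 15 places lay near internal TSSs, and 3 genes had 1 within 1 kb of the canonical TSS. They are shown because no peak covered them.
ATG9B, chr7:150721625-150721633, plus strand: cattactaggTGACTCAGCctaggcaggc
TECPR1, chr7:97880954-97880962, plus strand: ggaggtgtccTGAGTCAGCctggcgttca
ATG12, chr5:115176488-115176496, minus strand: tttcattgctTGAGTCAGCtatcctcaac
The *ATG9B* match lay 48 bp upstream of the canonical TSS, that of *TECPR1* 586 bp and that of *ATG12* 770 bp downstream, each of the latter in intron 1. The nearest peak centres were 4058 bp, 34717 bp and 88166 bp away.

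The neighbouring steps of the pathway were counted in the same way, beside the 6.03% of all protein-coding genes with a peak within 2 kb. In the ULK complex, which starts autophagy, 2 of 5 genes (40.0%) had a peak within 2 kb of a TSS. They were *ULK1*, the kinase (score 363.96), and *RB1CC1*, its scaffold (56.16). In the ATG8 family there were 3 of 7 (42.9%), with best scores of 302.72 at *GABARAPL1*, 98.92 at *MAP1LC3B2* and 54.64 at *MAP1LC3B*. Among 11 selective autophagy receptors, 2 (18.2%) had a peak, *SQSTM1* (616.46) and *RETREG1* (124.59). Among 10 partners of STX17 in fusion none had one within 2 kb, and a list of this length cannot show a share below 6.03%. All 33 proteasome subunit genes had one. No member peak within 2 kb scored as high as the best peaks of *SQSTM1* or *ULK1*, while that of *RUBCN* was close to the score of *GABARAPL1*. All of these lists but that of the proteasome are short, and the differences between them were not tested.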

How the data were processed

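The authors sequenced single-end reads of 1 NRF1 ChIP library, mapped them to hg19 with Bowtie2 (2.2.6) and called peaks with MACS (1.4.2). The deposited file gives an interval and a score for every peak. The settings, the treatment of duplicate reads and the control library are not given in the sources used here. Peak centres were compared with every TSS of GENCODE release 44 mapped to the same build. Distances refer to the nearest TSS of the gene or, where named, to that of its canonical transcript, and negative strand genes were read in their own direction. AREs were searched in 5673 peaks, after 5 on unplaced contigs and 5 with undetermined bases were left out. Lists are described by counts beside those of all protein-coding genes, and no test was made. Members and lists were chosen with earlier results of these data known. All members are named, those without a peak within 20 kb or in the gene by their nearest peak or its range, and AREs are printed for peaks within 2 kb of a TSS and for full forms elsewhere. Distances and motif searches were checked on simulated data, and all 200 planted AREs were found. Python 3.11.15 and numpy 2.4.6 were used. The array data of the study were not used here.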

Additional observations from a re-analysis of the deposited data

How the results depend on the processing

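Of 21 alternatives, 13 left the count within 1.5-fold. Percentages here are shares of all protein-coding genes, or of all peaks, under the same setting. With scores of at least 100, members with a peak within 2 kb fell from 4 to 2 (*VMP1* and *RUBCN*; 3.01%) and those within 20 kb from 9 to 4 (9.45%), while 7 of the 15 member peaks within 20 kb remained, of which 6 held an ARE (93.2%) against 12 of 15 before. A wider window cannot lose a member, and how many it adds depends on the data. A window of 5 kb gave 8 of the 34 members (8.96%) and one of 50 kb gave 16 (32.7%). The span of the canonical transcript held a peak at 4 of the 34 members (11.0%) instead of 7 (13.0%), so that the share of members came near that of all genes. The full form of the ARE was in 5 of the 15 peaks (61.3%), and with only canonical TSSs 3 members had a full ARE within 2 kb (7.21%) instead of 9 (19.2%). When only canonical TSSs were used, 3 members had a peak within 2 kb (3.67%) and 7 within 20 kb (12.9%). With each peak given only to the nearest protein-coding gene, which for the peak at the *VMP1* start is *PTRH2*, 3 members had a peak within 2 kb (5.27%) and 6 within 20 kb (12.9%). No paired analysis was possible because the peaks come from 1 library, and no library could be left out for the same reason.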

Other observations

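The base that follows the full ARE was compared after its values were seen, and without a test. It was A in all 6 full AREs of the member peaks and in 73.9% of the 3915 full AREs in peaks of the whole list. Outside peaks it was A in 31.9% of 49217 matches. Of the 18 matches within 2 kb of a member TSS, which lay outside peaks, 2 were followed by A, in *WDR45* and *STX17*. The base before the full ARE was A in 4 of the 6 matches in member peaks (57.5% over all peaks) and in 3 of the 18 outside (20.6% over all matches outside peaks). In the 18, 3 pairs of matches overlap on both strands, in *ATG7*, *PIK3C3* and *WDR45*, and their bases are therefore not independent. *RUBCN* holds the sequence TGACTCTGC at both of its matches, and each is followed by A as well. The other degenerate matches in peaks within 2 kb of a TSS were mixed, with A at *ATG4D*, G at *ATG5* and C at *VMP1*. No share over all degenerate matches was computed.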
